A study of Mus musculus with 12 samples.

Results

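The genes described here are the metalloproteinases of the ADAM, ADAMTS and matrix metalloproteinase (MMP) families, with the ADAMTS-like proteins and the tissue inhibitors of metalloproteinases (TIMPs). They were taken from the deposited table by symbol, as every row named Adam, Adamts, Adamtsl, Mmp or Timp with a number, plus Thsd4, an ADAMTS-like gene with another name. The rule found 74 genes of the 20540 in the table. Of these, 48 were measured, meaning at least 1 CPM (read counts scaled to the size of the library) in at least 3 of the 12 libraries, and 26 were not. The cells were oligodendrocyte progenitor cells (OPCs), the glial precursors of myelinating oligodendrocytes, taken at postnatal day 6-7 from the brain of C57BL/6 mice, proliferating in SATO+PDGFRA media. All cells of all 4 groups had been transfected with a biotin-tagged miRNA mimic, a synthetic RNA that acts as a mature microRNA, so there was no untransfected group. The groups were pulldown RNA under the miR-27a mimic, pulldown RNA under the control mimic, whole-cell RNA under the miR-27a mimic and whole-cell RNA under the control mimic, with 3 libraries each. The pulldown keeps RNA captured through the biotin tag of the mimic. Whether replicates were separate cultures is not stated in the labels, and p-values cover the spread among these libraries, which may be technical.

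ADAMs are membrane proteases that cut the outer parts of other membrane proteins, a step called shedding. ADAMTS enzymes are secreted relatives that cut matrix proteoglycans such as versican and brevican, which OPCs make in abundance, and ADAMTS-like proteins share their matrix-binding modules but lack the protease. MMPs cut matrix and cell surface proteins, as secreted or membrane-anchored (MT) enzymes, and TIMPs block the active site of MMPs and of some ADAMs and ADAMTSs. In the oligodendrocyte lineage these proteases are known for process outgrowth, for remodelling of the matrix around lesions and for shedding of adhesion and myelin proteins.

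MicroRNAs pair with sites in 3′ UTRs through their seed. The mature miR-27a-3p (RefSeq, GRCm38.p6, chr8:84208727-84208747, + strand) is shown with its seed, bases 2 to 8, in capitals.
miR-27a-3p: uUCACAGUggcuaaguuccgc
The sites searched on the sense strand of each gene's longest 3′ UTR (GENCODE M21, GRCm38) were the 8mer ACTGTGAA and the 7mers ACTGTGA and CTGTGAA, and a 7mer inside an 8mer was counted as the 8mer. Of the 48 measured genes, 5 held an 8mer (10.4%) and 20 held an 8mer or a 7mer (41.7%). Among the 11730 genes with a 3′ UTR that passed the same level, 6.85% held an 8mer and 30.4% held either. The metalloproteinase UTRs were longer, with a median of 2043 bases against 1268 bases in all those genes. All 6 of the 8mers in these 5 genes are shown because the 8mer is the longest of the sites searched, with the site in capitals.
Adam11, 8mer, chr11:102779940-102779969, + strand: gcctctgcaccACTGTGAAggcctctgcat
Adam19, 8mer, chr11:46145784-46145813, + strand: catgacattatACTGTGAAgtgtaagagga
Adam22, 8mer, chr5:8077045-8077074, - strand: tcatgtggtccACTGTGAAccacacttgtg
Adam22, 8mer, chr5:8075291-8075320, - strand: taaaagaagccACTGTGAAgataagattaa
Adamts5, 8mer, chr16:85861011-85861040, - strand: caaatgtgcctACTGTGAAagatttgcata
Adamtsl2, 8mer, chr2:27108508-27108537, + strand: ggggatgctgaACTGTGAAgatgtgacaca
The 7mers below belong to the 6 genes that hold a site and passed the test between mimics in whole-cell or pulldown RNA, so that each can be set beside its values (Mmp16 has a pair of such sites and 1 is shown). A match is a description of the letters and not evidence of binding.
Adamts6, 7mer-A1, chr13:104493857-104493885, + strand: tattttaacttCTGTGAAgtgggatttat
Adamtsl1, 7mer-A1, chr4:86428242-86428270, + strand: taatatttgttCTGTGAAttgtgactcag
Adamtsl3, 7mer-A1, chr7:82613199-82613227, + strand: tcttttaagagCTGTGAAtgaaactttat
Thsd4, 7mer-m8, chr9:59971220-59971248, - strand: cgctcccctccACTGTGActcatgactct
Mmp16, 7mer-A1, chr4:18117933-18117961, + strand: cagccactgggCTGTGAActtattagaga
Mmp17, 7mer-m8, chr5:129609429-129609457, + strand: aggcagaggatACTGTGAgtccttcagtg

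Library totals were 15548418 to 24972188 assigned reads, and 3 reads, the limit that a count of 0 allows, corresponded to 0.116 to 0.200 CPM, which covers counting error only. Principal component 1 (65.3% of the variance) split the libraries by RNA, and component 2 (14.4%) by mimic. On the third (5.4%), replicate 2 of the pulldown miR-27a group lay far from the rest, at -20.8 against -7.3 to 11.7 for the other libraries. The labelled cell type was checked against marker genes. OPC markers summed to 1682 to 1738 CPM in whole-cell miR-27a libraries and 1616 to 1652 CPM in whole-cell control libraries. Oligodendrocyte markers were the highest, at 10570 to 10950 CPM in whole-cell miR-27a libraries and 11100 to 11600 CPM in whole-cell control libraries. Astrocyte markers were also high, at 6363 to 6416 CPM in whole-cell miR-27a libraries and 7559 to 7587 CPM in whole-cell control libraries. Smooth-muscle markers summed to 102.2 to 107.7 CPM in whole-cell miR-27a libraries and 261.6 to 297.3 CPM in whole-cell control libraries, and all 4 that were tested were lower under miR-27a. Neuronal markers summed to 198.5 to 224.4 CPM in whole-cell miR-27a libraries and 151.5 to 173.3 CPM in whole-cell control libraries, mostly from Tubb3, and endothelial markers to 8.94 to 10.9 CPM and 7.14 to 7.34 CPM in the same groups, mostly from Kdr. Cldn5, Flt1 and Tek on the endothelial list, Des and Myh11 on the smooth-muscle list and Rbfox3 on the neuronal list were below 1 CPM in every library. These are bulk samples, in which fewer cells of a type and less RNA per cell cannot be told apart.

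Per length of exon, the scale on which genes can be set against each other, Adam9, a broadly expressed sheddase, was the most abundant of the 74 in every group. In whole-cell RNA it averaged 76.3 CPM per kb in miR-27a libraries and 75.8 CPM per kb in control libraries. Adamts4, an aggrecanase made by oligodendrocytes, had 25.7 CPM per kb under miR-27a and 26.4 CPM per kb under control mimic. Adam10, the main constitutive sheddase, had 23.1 CPM per kb under miR-27a and 22.8 CPM per kb under control mimic. Timp1, the secreted inhibitor of many MMPs, had 13.2 CPM per kb under miR-27a and 21.5 CPM per kb under control mimic. Adam17 (the TNF-converting enzyme), Adamts1 (a proteoglycanase) and Adam22 (a protease-dead receptor of LGI proteins) had whole-cell group means from 12.5 to 15.4 CPM per kb, and Adam17 stood above Timp1 under miR-27a and below it under control mimic. Mmp16, a membrane-anchored MMP, had the highest level per length among MMPs in whole-cell RNA, at 7.24 CPM per kb under miR-27a and 7.28 CPM per kb under control mimic. In pulldown RNA the most abundant MMP per length was Mmp2 under miR-27a, at 13.7 CPM per kb, and Mmp24 under control mimic, at 10.5 CPM per kb. The levels of Adam17, Adamts1 and Adam22 lay close together and their order differed between the mimics. Exon lengths came from GENCODE M21 and not from the annotation used for counting, so these levels are approximate.

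**Figure D1:**
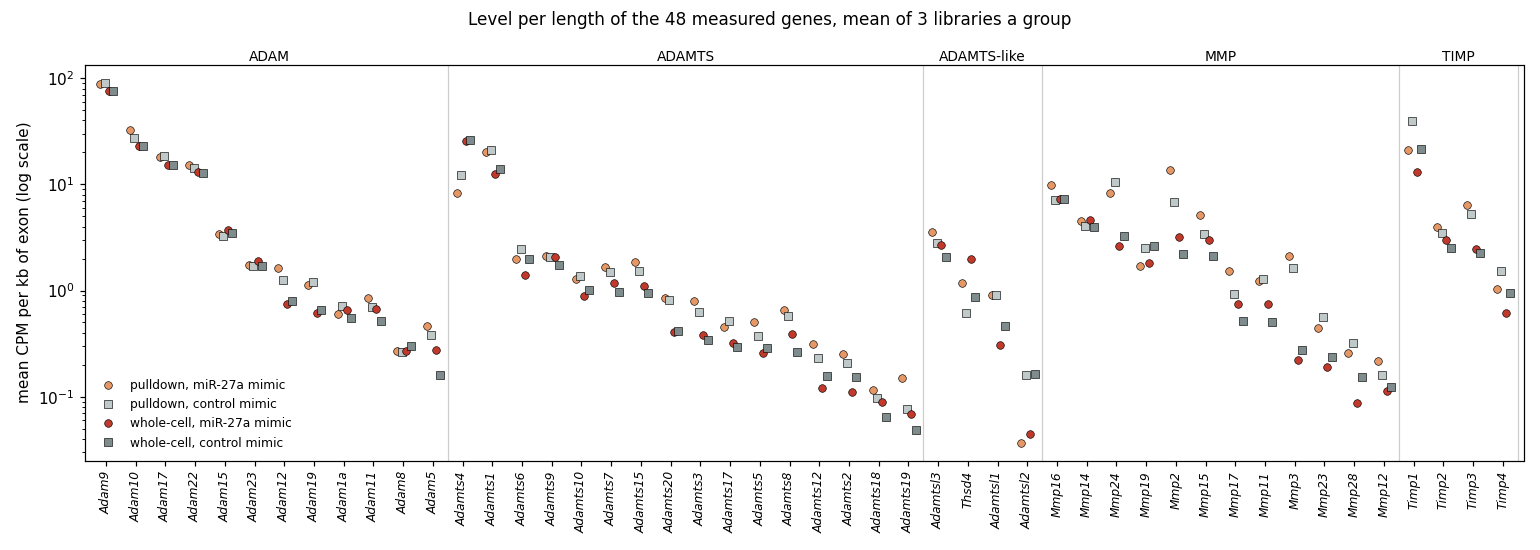
Mean level of each of the 48 measured genes in CPM per kb of exon (log axis), grouped by family, with 1 point per group (pulldown miR-27a, pulldown control, whole-cell miR-27a, whole-cell control; mean of 3 libraries). Adam9 is highest in every group, and Adamts4 is the abundant gene whose pulldown points lie well below its whole-cell points.

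The 26 genes not measured were Adam1b, Adam2, Adam3, Adam4, Adam7, Adam18, Adam21, Adam24, Adam28, Adam30, Adam32, Adam33, Adam34 and Adam39 among the 26 ADAMs, Adamts13, Adamts14 and Adamts16 among the 19 ADAMTSs, Adamtsl4 and Adamtsl5 among the 6 ADAMTS-like genes, and Mmp1b, Mmp8, Mmp9, Mmp10, Mmp13, Mmp21 and Mmp27 among the 19 MMPs. All 4 TIMPs were measured. Each of the 26 had at least 1 read in some library. The highest value among them was 1.13 CPM for Mmp9, gelatinase B, which reached 1 CPM in 2 libraries, followed by 1.02 CPM for Adam32 in 1 library. Several of the ADAMs in this group, such as Adam2 and Adam3, are known from sperm. Among the measured genes, 10 did not reach 1 CPM in every library. Adam1a is uncertain because 63.7% of its exonic bases are shared with Gm42878 and 24.0% with Mapkapk5, both on the same strand. Gm42878 has no row in the deposited values.

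The comparison of the mimics in whole-cell RNA showed how these transcripts stood in the cells as a whole. Thsd4, Mmp2, Mmp15, Mmp17, Adamtsl3 and Adamts9 were higher under miR-27a than under control mimic. Timp1, Timp4, Adamtsl1, Mmp19, Adamts6, Mmp24 and Adamts1 were lower. The ADAM sheddases differed little. Of the 48 measured genes, 40 reached at least 1 CPM in 3 of these 6 libraries and were tested with limma on log2(CPM + 1), with Benjamini-Hochberg adjustment over all 13393 genes tested and a threshold of 0.05. Under miR-27a 6 rose and 7 fell, 32.5% of the 40, against 24.9% called among all genes tested (13.0% higher and 11.9% lower). Without Thsd4, which earlier results had already shown among the leading rises, 30.8% of 39 were called. The median log2 change of the 40 was 0.03, against 0.01 over all genes tested, and the median absolute log2 change was 0.20 against 0.11. None of the 11 ADAMs tested passed the threshold in whole-cell RNA by limma or by limma voom (2 had an unadjusted p under 0.05), and the median of their absolute log2 changes was 0.09. Of 14 ADAMTSs, 1 rose and 2 fell. Of 3 ADAMTS-like genes, 2 rose and 1 fell. Of 8 MMPs, 3 rose and 2 fell, and of 4 TIMPs, 2 fell.

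In pulldown RNA Mmp2, Thsd4, Mmp15, Mmp16, Timp3 and Adam10 were higher under miR-27a than under control mimic, and Timp1, Adamts4, Mmp19, Timp4 and Mmp24 were lower. The same test took in 47 of the 48 among 13586 genes, of which 6 rose and 5 fell under miR-27a. This was 23.4% of the 47, against 13.1% called among all genes tested (6.05% higher and 7.06% lower), and 21.7% of 46 without Thsd4. The median log2 change was 0.13, against -0.00 over all genes tested. Leaving out 1 library moved this count of 11. It was 5 without pulldown miR-27a replicate 3, 5 without pulldown control replicate 1, 6 without control replicate 2 and 6 without control replicate 3. It was 14 without pulldown miR-27a replicate 2, the library that stood apart. The shares called among all genes in those fits are not given here, so nothing particular to these genes is read from the moves. Thsd4, Mmp2, Mmp15, Mmp19, Mmp24, Timp1 and Timp4 passed the threshold in both RNAs with the same direction, 7 genes that make up 53.8% of the whole-cell calls and 63.6% of the pulldown calls. The same shares over all genes were not worked out, so nothing is read from the size of this overlap. In every gene called, the 3 miR-27a libraries did not overlap the 3 control libraries. This is no added support, because genes not called, such as Adam23 and Adam11 in whole-cell RNA, did not overlap either. The share over all genes was not worked out. Whether the change between mimics differed between pulldown and whole-cell RNA was tested over all 12 libraries with limma, and 0 of the 48 passed, against 1.07% among all 13875 genes tested. At an unadjusted p under 0.05 there were 8, and limma voom on the recovered reads also called 0. A gene called in 1 RNA alone is therefore not shown to differ between the RNAs.

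**Figure D2:**
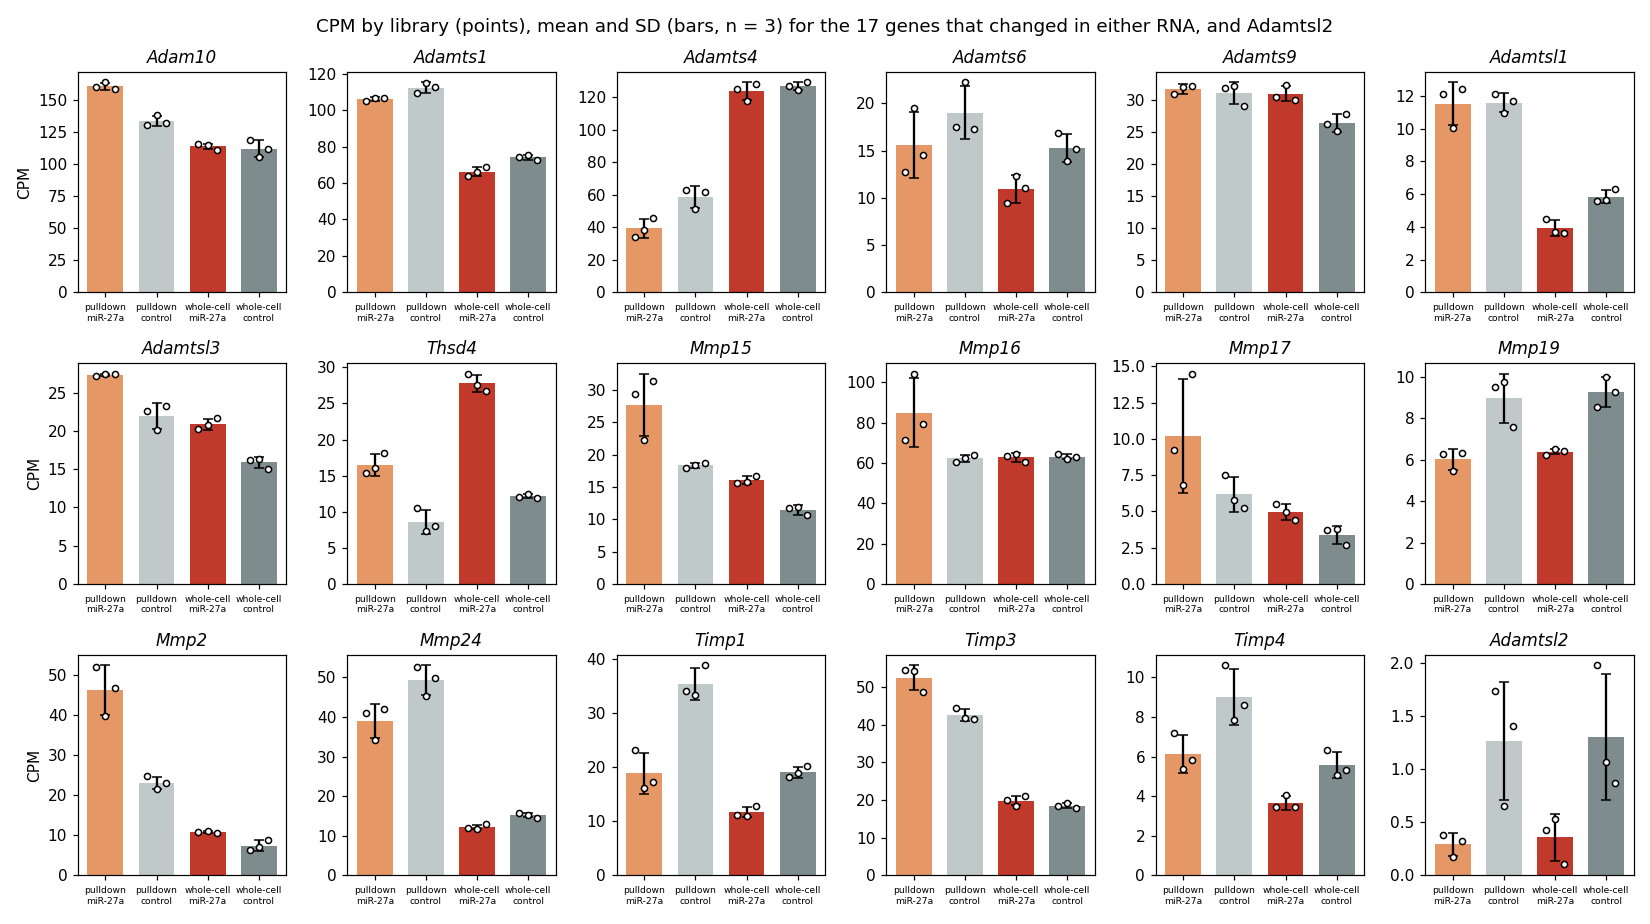
CPM in each library (points), with the mean (bar) and SD (error bar, n = 3), for the 17 genes that passed the threshold between mimics in whole-cell or pulldown RNA, and for Adamtsl2; each panel has its own linear axis from 0. Thsd4, Mmp2 and Mmp15 stand higher under miR-27a in both RNAs, and Timp1, Timp4, Mmp19 and Mmp24 stand lower.

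Among the membrane sheddases, levels under the mimics were close. Adam9 had 310.3, 317 and 316 CPM in the whole-cell miR-27a libraries, against 301, 317 and 318 CPM in the whole-cell control libraries. Adam17 had 106, 112 and 108 CPM in the whole-cell miR-27a libraries, against 109, 108 and 112 CPM in the whole-cell control libraries. Adam10 had 115, 114 and 111 CPM in the whole-cell miR-27a libraries, against 118, 105 and 112 CPM in the whole-cell control libraries. The groups overlapped for all 3 genes, and limma gave log2 changes of 0.01 ± 0.03 for Adam9, -0.02 ± 0.04 for Adam17 and 0.02 ± 0.04 for Adam10 (SE, n = 3 each). In pulldown RNA Adam10 had 159, 163 and 158 CPM in the miR-27a libraries, against 131, 138 and 132 CPM in the control libraries. All 3 miR-27a libraries were above all 3 control libraries in pulldown RNA, and Adam10 rose by a log2 change of 0.26 ± 0.08 (limma, adjusted p = 0.0332). That adjusted p was 0.108 without pulldown miR-27a replicate 3, and 0.139, 0.0715 and 0.156 without control replicate 1, 2 and 3. In pulldown RNA, Adam9 had 334, 399 and 367 CPM under miR-27a, against 368, 381 and 371 CPM under control mimic. Adam17 had 126, 142 and 124 CPM in pulldown RNA under miR-27a, against 139, 133 and 126 CPM under control mimic. Both genes overlapped between the mimics in pulldown RNA.

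Adam11, Adam22 and Adam23 encode the catalytically inactive ADAMs that bind LGI proteins at the cell surface, and Adam11 and Adam22 are among the 8mer holders shown above. Adam22 had 189.6, 188 and 180.3 CPM in the whole-cell miR-27a libraries, against 196, 173 and 178 CPM in the whole-cell control libraries. In pulldown RNA Adam22 had 193, 243 and 214 CPM in the miR-27a libraries, against 212, 198 and 198 CPM in the control libraries. The mimics overlapped in both RNAs, with log2 changes of 0.03 ± 0.04 in whole-cell RNA and 0.09 ± 0.09 in pulldown RNA. Adam11 averaged 3.78 ± 0.1004 CPM under miR-27a and 2.95 ± 0.429 CPM under control mimic in whole-cell RNA (SD, n = 3 each), and its log2 change of 0.28 ± 0.13 did not pass (limma, adjusted p = 0.118). Adam23 averaged 33.9 ± 1.49 CPM under miR-27a and 30.8 ± 0.784 CPM under control mimic in whole-cell RNA (SD, n = 3 each), and did not pass (limma, adjusted p = 0.118). Of their ligands, Lgi2, Lgi3 and Lgi4 were tested and none of the 3 passed in either RNA by limma (0 in whole-cell and 2 in pulldown RNA had an unadjusted p under 0.05), with Lgi3 at 119.7 ± 2.33 CPM under miR-27a and 120.2 ± 4.76 CPM under control mimic in whole-cell RNA (SD, n = 3 each). The meltrins Adam12 and Adam19, the second of which also holds an 8mer, did not pass between mimics, with log2 changes in whole-cell RNA of -0.09 ± 0.10 and -0.09 ± 0.12. Adam1a, Adam5, Adam8 and Adam15 did not pass in either RNA where tested.

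Of the proteoglycan-cutting ADAMTSs, Adamts1 and Adamts4 were abundant. Adamts1 had 63.9, 65.8 and 68.7 CPM in the whole-cell miR-27a libraries, against 74.3, 75.6 and 72.7 CPM in the whole-cell control libraries. All miR-27a libraries were below all control libraries, and Adamts1 fell by a small step, with a log2 change of -0.16 ± 0.05 (limma, adjusted p = 0.0115). That adjusted p was 0.0801 without whole-cell miR-27a replicate 1 and 0.0751 with all 12 libraries in 1 fit. In pulldown RNA Adamts1 had 105, 107 and 107 CPM in the miR-27a libraries, against 109, 115 and 113 CPM in the control libraries. Its log2 change in pulldown RNA was -0.08 ± 0.08 and did not pass (limma, adjusted p = 0.566). Adamts4 had 125, 117 and 128 CPM in the whole-cell miR-27a libraries, against 127, 125 and 129 CPM in the whole-cell control libraries, and these overlapped. In pulldown RNA Adamts4 had 34.3, 38.4 and 45.9 CPM in the miR-27a libraries, against 63.2, 51.03 and 61.8 CPM in the control libraries. There every miR-27a library was below every control library, and Adamts4 fell, with a log2 change of -0.56 ± 0.11 (limma, adjusted p = 0.00382). Oligodendrocyte markers fell with it in pulldown RNA, in 5 of 6 tested, with sums of 3733 to 4766 CPM under miR-27a and 5088 to 5687 CPM under control mimic. In whole-cell RNA, where Adamts4 overlapped between mimics, 3 of 6 of these markers fell. Their part in the Adamts4 result was not tested. The difference of the Adamts4 change in pulldown RNA from that in whole-cell RNA was a log2 value of -0.52 ± 0.13. It had the smallest adjusted p of the 48 (limma, adjusted p = 0.0573), with 0.033 when the replicate number was a block. With single libraries left out that adjusted p lay between 0.0122 (without pulldown miR-27a replicate 2) and 0.179 (without whole-cell miR-27a replicate 3).

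Adamts9, another proteoglycanase, went the other way in whole-cell RNA. Adamts9 had 30.5, 32.3 and 30.05 CPM in the whole-cell miR-27a libraries, against 26.3, 25.1 and 27.8 CPM in the whole-cell control libraries. The groups did not overlap, and Adamts9 rose by a log2 change of 0.22 ± 0.06 (limma, adjusted p = 0.0144). The adjusted p was 0.0676 without whole-cell miR-27a replicate 2, 0.0541 without whole-cell control replicate 2 and 0.0646 with all 12 libraries in 1 fit. In pulldown RNA Adamts9 had 30.9, 32.1 and 32.2 CPM in the miR-27a libraries, against 31.9, 32.1 and 29.1 CPM in the control libraries. The pulldown groups overlapped, with a log2 change of 0.03 ± 0.09. Adamts5, an aggrecanase with an 8mer, was low: 3.07, 2.49 and 2.81 CPM in the whole-cell miR-27a libraries, against 3.44, 2.43 and 3.47 CPM in the whole-cell control libraries. Its groups overlapped in both RNAs, and its log2 changes were -0.11 ± 0.14 in whole-cell RNA and 0.34 ± 0.17 in pulldown RNA, with adjusted p of 0.617 and 0.206 by limma. Adamts8, Adamts15 and Adamts20, of the same activity, did not pass in either RNA, with log2 changes in whole-cell RNA of 0.34 ± 0.15, 0.21 ± 0.09 and -0.03 ± 0.13.

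Adamts6 and Adamts10 are a related pair known for acting on fibrillin microfibrils, the scaffold of elastic matrix. Adamts6 had 9.43, 12.4 and 11.03 CPM in the whole-cell miR-27a libraries, against 16.8, 13.9 and 15.1 CPM in the whole-cell control libraries. The groups did not overlap and Adamts6, which holds a 7mer, fell, with a log2 change of -0.45 ± 0.10 (limma, adjusted p = 0.00158). In pulldown RNA Adamts6 had 12.7, 19.5 and 14.6 CPM in the miR-27a libraries, against 17.5, 22.2 and 17.3 CPM in the control libraries. The pulldown groups overlapped, through the 19.5 CPM of miR-27a replicate 2. The log2 change there was -0.28 ± 0.15 (limma, adjusted p = 0.241), and without that library it passed, with an adjusted p of 0.00782. Adamts10 did not pass, with a log2 change of -0.15 ± 0.11 in whole-cell RNA. The procollagen-trimming enzymes Adamts2 and Adamts3, and Adamts7, Adamts12, Adamts17, Adamts18 and Adamts19, did not pass in either RNA where tested.

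The ADAMTS-like genes held the largest change of the 40 genes tested in whole-cell RNA. Thsd4 encodes ADAMTSL6, which binds fibrillin-1 and promotes microfibril assembly. Thsd4 had 29.1, 27.6 and 26.7 CPM in the whole-cell miR-27a libraries, against 12.05, 12.4 and 11.9 CPM in the whole-cell control libraries. The groups were far apart, with little spread within either. Thsd4 was 2.29 times as high under miR-27a, a log2 change of 1.13 ± 0.07 (limma, adjusted p = 9.85e-11). In pulldown RNA Thsd4 had 15.3, 16 and 18.2 CPM in the miR-27a libraries, against 10.5, 7.296 and 8.03 CPM in the control libraries. The pulldown groups did not overlap either, and Thsd4 rose by a log2 change of 0.88 ± 0.14 (limma, adjusted p = 0.000525). The gene holds the 7mer shown above and rose in both RNAs.

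Adamtsl3, also called punctin-2, is a secreted matrix protein. Adamtsl3 had 20.3, 20.7 and 21.7 CPM in the whole-cell miR-27a libraries, against 16.2, 16.3 and 15.1 CPM in the whole-cell control libraries. The groups did not overlap, and Adamtsl3 rose by a log2 change of 0.38 ± 0.08 (limma, adjusted p = 0.000672). In pulldown RNA Adamtsl3 had 27.2, 27.4 and 27.4 CPM in the miR-27a libraries, against 22.5, 20.1 and 23.2 CPM in the control libraries. These also did not overlap, but the log2 change of 0.31 ± 0.10 did not pass (limma, adjusted p = 0.0551), while it did with the replicate number as a block (adjusted p = 0.0273) and with miR-27a replicate 2 left out (adjusted p = 0.0391). Its paralogue Adamtsl1, or punctin, moved the other way. Adamtsl1 had 4.47, 3.67 and 3.66 CPM in the whole-cell miR-27a libraries, against 5.61, 5.62 and 6.34 CPM in the whole-cell control libraries. The groups did not overlap and Adamtsl1 fell, with a log2 change of -0.48 ± 0.12 (limma, adjusted p = 0.00455). In pulldown RNA Adamtsl1 had 12.1, 10.02 and 12.4 CPM in the miR-27a libraries, against 12.1, 10.96 and 11.7 CPM in the control libraries. The pulldown groups overlapped, with a log2 change of -0.01 ± 0.12.

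Adamtsl2, a microfibril-binding protein known from geleophysic dysplasia, holds an 8mer and was singled out after its values were seen. In whole-cell RNA it had 8, 9 and 2 reads in the miR-27a libraries, against 31, 18 and 13 reads in the control libraries, or 0.431, 0.533 and 0.113 CPM against 1.98, 1.07 and 0.868 CPM. In pulldown RNA it had 8, 4 and 7 reads in the miR-27a libraries, against 29, 17 and 33 reads in the control libraries. Every miR-27a library was below every control library in both RNAs. It was too low for the main test in either comparison, and it counts as measured through 4 libraries, all under control mimic. The alternatives with no filter on low values and with all 12 libraries in 1 fit took it in and called it lower in both RNAs. Nothing is read from those calls, because the gene was singled out after its values were seen. These values are a description, with no main test.

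Of the secreted MMPs, Mmp2, or gelatinase A, is cut to its active form by the membrane-anchored Mmp14 together with Timp2. Mmp2 had 10.8, 11.1 and 10.7 CPM in the whole-cell miR-27a libraries, against 6.25, 7.16 and 8.94 CPM in the whole-cell control libraries. The groups did not overlap, and Mmp2 rose by a log2 change of 0.50 ± 0.11 (limma, adjusted p = 0.00153). In pulldown RNA Mmp2 had 52.2, 39.8 and 46.9 CPM in the miR-27a libraries, against 24.8, 21.5 and 23.04 CPM in the control libraries. Here every miR-27a library was well above every control library, the mean was 2.004 times as high, and the log2 change was 0.97 ± 0.11 (limma, adjusted p = 3.64e-05). Mmp14 had 28.99, 26.5 and 26.4 CPM in the whole-cell miR-27a libraries, against 21.6, 24.8 and 24.9 CPM in the whole-cell control libraries. These did not overlap, but the log2 change of 0.19 ± 0.07 did not pass (limma, adjusted p = 0.0517). Fibroblast and mural markers, cells in which Mmp2 is known to be high, summed to 125.9 to 131.6 CPM in whole-cell miR-27a libraries and 106.6 to 116.1 CPM in whole-cell control libraries, and to 379.6 to 391.1 CPM in pulldown miR-27a libraries and 335.5 to 364.6 CPM in pulldown control libraries. Of these 8 genes, Col3a1 rose and Pdgfrb fell among 6 tested in whole-cell RNA, and none rose and 1 fell among 8 tested in pulldown RNA. Their part in the Mmp2 result was not tested.

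Mmp19, a secreted MMP, fell in both RNAs. Mmp19 had 6.25, 6.51 and 6.41 CPM in the whole-cell miR-27a libraries, against 8.54, 9.9996 and 9.28 CPM in the whole-cell control libraries. In pulldown RNA Mmp19 had 6.3, 5.45 and 6.33 CPM in the miR-27a libraries, against 9.53, 9.77 and 7.61 CPM in the control libraries. The groups did not overlap in either RNA, and the log2 changes were -0.47 ± 0.10 in whole-cell RNA and -0.50 ± 0.14 in pulldown RNA (limma, adjusted p = 0.00135 and 0.0253). In pulldown RNA the adjusted p was 0.0641 without miR-27a replicate 3, and 0.105 and 0.106 without control replicates 1 and 2, and 0.0893 with no filter on low values. Tmem198b, with up to 59.0 CPM, covers 22.3% of the exonic bases of Mmp19 on the opposite strand, so the level of Mmp19 is uncertain if counting ignored strand. Mmp3 (stromelysin-1), Mmp12, Mmp23 and Mmp28 were tested in pulldown RNA and Mmp11 in both, and none passed. In pulldown RNA Mmp3 had 4.23, 3.87 and 3.398 CPM under miR-27a, against 2.58, 2.62 and 3.66 CPM under control mimic, which overlapped.

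The membrane-anchored MMPs split in direction. In whole-cell RNA Mmp15 had 15.6, 15.7 and 16.7 CPM in the miR-27a libraries, against 11.8, 11.9 and 10.6 CPM in the control libraries. In pulldown RNA Mmp15 had 29.3, 22.3 and 31.4 CPM in the miR-27a libraries, against 17.98, 18.4 and 18.7 CPM in the control libraries. Mmp15 did not overlap between mimics in either RNA, and rose by log2 changes of 0.45 ± 0.09 in whole-cell RNA and 0.55 ± 0.12 in pulldown RNA (limma, adjusted p = 0.000354 and 0.006704). With miR-27a replicate 3 left out, the pulldown value was 0.0583. In whole-cell RNA Mmp24 had 11.9, 11.8 and 12.9 CPM in the miR-27a libraries, against 15.7, 15.3 and 14.6 CPM in the control libraries. In pulldown RNA Mmp24 had 40.98, 34.1 and 41.9 CPM in the miR-27a libraries, against 52.7, 45.4 and 49.9 CPM in the control libraries. Mmp24, a neural member of the group, was lower in all miR-27a libraries of each RNA, by log2 changes of -0.29 ± 0.08 and -0.33 ± 0.10 (limma, adjusted p = 0.0126 in whole-cell RNA and 0.0418 in pulldown RNA). The whole-cell adjusted p was 0.0533 without miR-27a replicate 1. In pulldown RNA the adjusted p was 0.0519 and 0.0678 without miR-27a replicates 2 and 3, 0.187, 0.0523 and 0.147 without control replicates 1, 2 and 3, and 0.0599 with library totals as the scaling, and 0.0845 with no filter on low values. BC029722 covers 13.6% of its exonic bases on the opposite strand.

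In whole-cell RNA Mmp16 had 63.3, 64.6 and 60.4 CPM in the miR-27a libraries, against 64.3, 61.95 and 63.1 CPM in the control libraries. These overlapped, with a log2 change of -0.01 ± 0.05. In pulldown RNA Mmp16 had 71.2, 104 and 79.5 CPM in the miR-27a libraries, against 60.5, 62.3 and 63.9 CPM in the control libraries. Every pulldown miR-27a library was above every pulldown control library, with replicate 2 highest at 104 CPM, and Mmp16 rose by a log2 change of 0.42 ± 0.11 (limma, adjusted p = 0.0219). The adjusted p was 0.0559 without miR-27a replicate 3, and 0.103, 0.0709 and 0.0712 without control replicates 1, 2 and 3, and 0.0808 with no filter on low values. In whole-cell RNA Mmp17 had 5.496, 4.97 and 4.39 CPM in the miR-27a libraries, against 3.697, 3.79 and 2.67 CPM in the control libraries. Mmp17, which is held to the membrane by a lipid anchor, did not overlap between mimics in whole-cell RNA and rose by a log2 change of 0.45 ± 0.13 (limma, adjusted p = 0.0155). That adjusted p was 0.0896 without whole-cell miR-27a replicate 1, 0.102 without whole-cell control replicate 3, 0.0728 with no filter on low values and 0.163 with all 12 libraries in 1 fit. In pulldown RNA Mmp17 had 9.23, 6.81 and 14.5 CPM in the miR-27a libraries, against 7.49, 5.79 and 5.23 CPM in the control libraries. The pulldown groups overlapped and the log2 change of 0.59 ± 0.20 did not pass (limma, adjusted p = 0.0651), but it did with the replicate number as a block (adjusted p = 0.03204), without miR-27a replicate 1 (adjusted p = 0.0314) and without miR-27a replicate 2 (adjusted p = 0.000121).

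**Figure D3:**
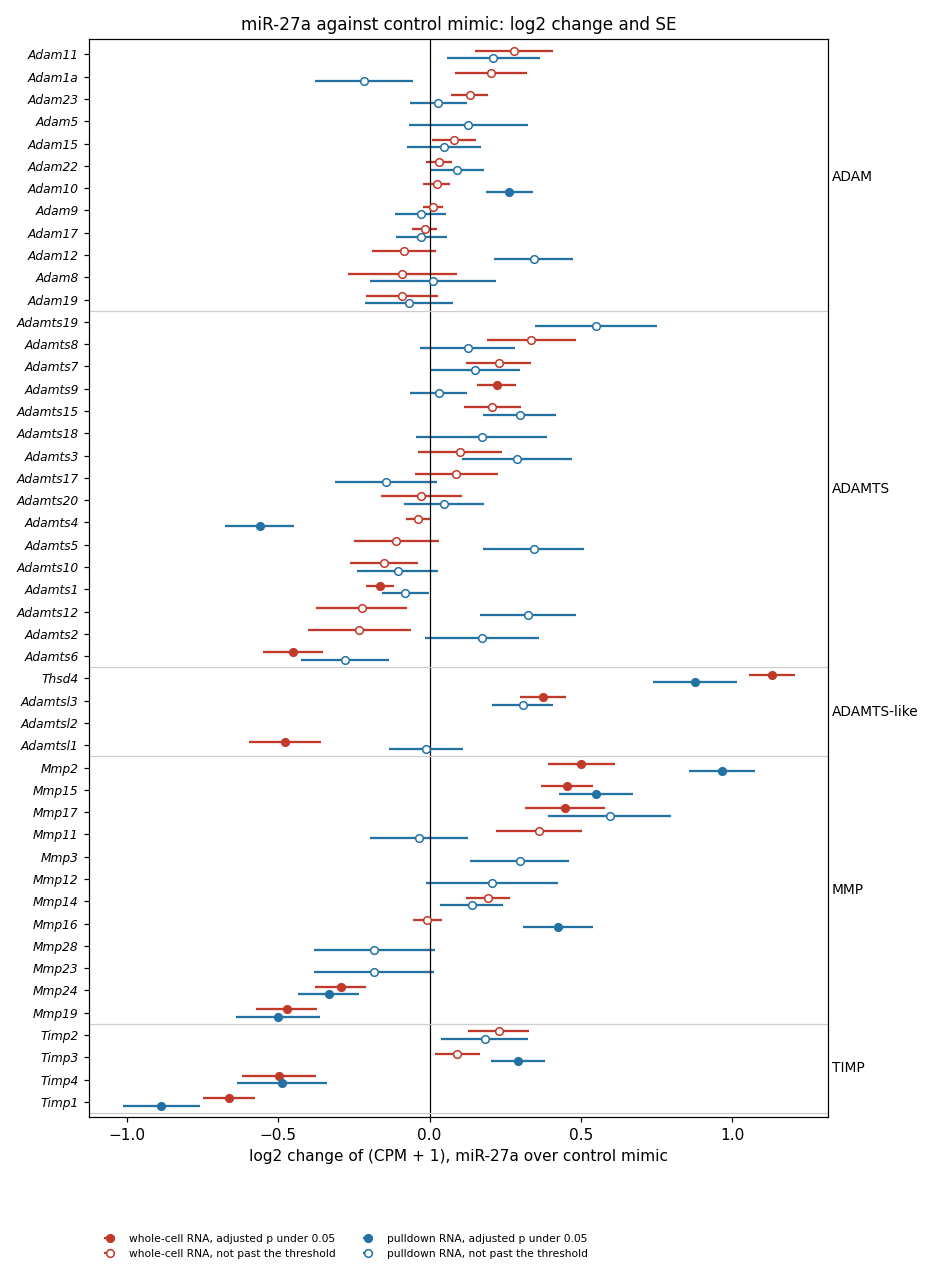
Log2 change of CPM + 1 (x axis), miR-27a over control mimic, with its standard error, for each measured gene by family, in whole-cell RNA (red) and pulldown RNA (blue); filled points passed an adjusted p of 0.05 and genes with no point were too low to be tested. The ADAM points lie close to 0 in whole-cell RNA, Thsd4 and Mmp2 lie farthest to the right, and Timp1 lies farthest to the left.

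The inhibitors moved in different directions too. In whole-cell RNA Timp1 had 11.2, 11.1 and 12.8 CPM in the miR-27a libraries, against 18.1, 18.9 and 20.2 CPM in the control libraries. In pulldown RNA Timp1 had 23.2, 16.2 and 17.2 CPM in the miR-27a libraries, against 33.98, 33.4 and 38.8 CPM in the control libraries. Timp1 was lower in all miR-27a libraries of each RNA, with means 0.613 times (whole-cell) and 0.533 times (pulldown) those under control mimic. The log2 changes were -0.66 ± 0.09 in whole-cell RNA and -0.89 ± 0.13 in pulldown RNA (limma, adjusted p = 3.20e-06 and 0.000253). Timp1 is known to be made by reactive astrocytes, and astrocyte markers moved with it between mimics but not between the RNAs. Of 7 astrocyte markers tested, 5 fell in whole-cell RNA and 6 fell in pulldown RNA, where their sums were 3613 to 3925 CPM under miR-27a and 4965 to 5108 CPM under control mimic. Gfap averaged 1163 ± 46.4 CPM under miR-27a and 1333 ± 43.1 CPM under control mimic in whole-cell RNA (SD, n = 3 each). In pulldown against whole-cell RNA, Timp1 was higher, by log2 changes of 0.63 ± 0.11 under miR-27a and 0.86 ± 0.11 under control mimic. Astrocyte markers were lower there, 5 of 7 under each mimic, with 1 higher under control mimic. Smooth-muscle markers also fell between mimics, all 4 tested in each RNA. They too were lower in pulldown than in whole-cell RNA, where Timp1 was higher. This held for 3 of 4 under miR-27a and 4 of 4 under control mimic. The part of the astrocyte and smooth-muscle markers in the Timp1 result was not tested.

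In whole-cell RNA Timp4 had 3.45, 4.08 and 3.43 CPM in the miR-27a libraries, against 6.31, 5.09 and 5.34 CPM in the control libraries. In pulldown RNA Timp4 had 7.21, 5.36 and 5.82 CPM in the miR-27a libraries, against 10.6, 7.84 and 8.59 CPM in the control libraries. Timp4, the least abundant of the TIMPs in these cells per length, did not overlap between mimics and fell, with log2 changes of -0.50 ± 0.12 in whole-cell RNA and -0.49 ± 0.15 in pulldown RNA (limma, adjusted p = 0.00408 and 0.0407). In pulldown RNA the adjusted p was 0.0568 and 0.1398 without miR-27a replicates 2 and 3, 0.192 and 0.0903 without control replicates 1 and 3, and 0.0526 by limma voom, and 0.1303 with no filter on low values. Timp3 is the matrix-bound TIMP that also inhibits ADAM17 and the aggrecanases. In whole-cell RNA Timp3 had 20.1, 18.5 and 20.99 CPM in the miR-27a libraries, against 18.6, 19.1 and 18.02 CPM in the control libraries. In pulldown RNA Timp3 had 54.5, 54.2 and 48.6 CPM in the miR-27a libraries, against 44.4, 41.9 and 41.5 CPM in the control libraries. Timp3 overlapped in whole-cell RNA, with a log2 change of 0.09 ± 0.08, and rose in pulldown RNA by 0.29 ± 0.09 (limma, adjusted p = 0.04296), where the groups did not overlap. Without each pulldown library in turn that adjusted p was 0.0847 and 0.0648 (miR-27a replicates 1 and 3) and 0.08903, 0.129 and 0.1696 (control replicates 1, 2 and 3), and it was 0.0562 with no filter on low values. Syn3 covers 21.3% of the exonic bases of Timp3 on the opposite strand, but reached no more than 3.74 CPM. Timp2 had 13.2, 10.5 and 11.6 CPM in the whole-cell miR-27a libraries, against 9.37, 9.41 and 10.9 CPM in the whole-cell control libraries, which overlapped and did not pass (limma, adjusted p = 0.102). In pulldown RNA Timp2 had 17.6, 11.9 and 17.1 CPM under miR-27a, against 13.4, 11.97 and 15 CPM under control mimic, with an adjusted p of 0.461. Leaving out pulldown miR-27a replicate 2 gave 0.04303.

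The changes were also set beside the sites. Among all genes tested in whole-cell RNA, 32.5% of the 773 with an 8mer were lower and 7.89% were higher, against 9.21% lower and 14.7% higher among 7924 with neither site. Of the 17 metalloproteinase and inhibitor genes with an 8mer or 7mer that were tested in whole-cell RNA, 3 were higher (Thsd4, Adamtsl3 and Mmp17) and 2 were lower (Adamts6 and Adamtsl1). The 4 with an 8mer that could be tested (Adam11, Adam19, Adam22 and Adamts5) did not pass in either RNA, while Adamtsl2 was too low for the test. Among all 3474 genes tested in whole-cell RNA with an 8mer or 7mer, 11% were higher and 19.9% were lower. Of 23 with neither site, 3 were higher and 5 were lower. In pulldown RNA 19 with a site were tested, and 2 were higher (Thsd4 and Mmp16) and 0 lower by limma or by limma voom, with 0 of them lower at an unadjusted p under 0.05. Among all 3521 genes with a site in pulldown RNA, 5.82% were higher and 10.8% were lower. For the 789 with an 8mer the shares were 3.93% higher and 17.6% lower. Of 28 metalloproteinase and inhibitor genes with neither site, 4 were higher and 5 were lower in pulldown RNA. Among all 8013 genes with neither site, 6.64% were higher and 5.85% were lower there.

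Pulldown RNA was compared with whole-cell RNA under each mimic, which asks which transcripts made up a larger share of the captured RNA. Most of the measured genes were higher in pulldown RNA under both mimics. Among genes that reached 1 CPM in both RNAs, Mmp2 and Mmp24 had the largest rises, and Adamts4 and Thsd4 were lower. These contrasts share libraries with the comparisons of mimics, and came from 1 limma fit of all 12 libraries. Under miR-27a 34 of the 48 genes were higher in pulldown RNA and 2 were lower, together 75.0%, against 60.2% called among all 13875 genes tested (29.3% higher and 30.9% lower). Under the control mimic 31 were higher and 2 were lower, 68.8%, against 62.0% called among all genes tested (31.7% higher and 30.3% lower). The median log2 change of the 48 was 0.48 under miR-27a and 0.41 under control mimic, against -0.01 and 0.02 over all genes tested under the same mimics. By family, the higher genes under miR-27a were 6 of 12 ADAMs, 13 of 16 ADAMTSs, 9 of 12 MMPs, 2 of 4 ADAMTS-like genes and all 4 TIMPs. Under the control mimic they were 7 of 12, 10 of 16, 8 of 12, 2 of 4 and all 4. Mmp3, Mmp23, Mmp28 and Adam5 reached 1 CPM in pulldown libraries alone, so they entered this test through the RNA in which they were high, and nothing is read from their calls. They are included in the totals and the family counts above. Of the other 44 genes, 31 were higher and 2 lower under miR-27a, and 27 were higher and 2 lower (65.9%) under control mimic, with median log2 changes of 0.46 and 0.36.

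Mmp2 had the largest change of pulldown over whole-cell RNA on the log2(CPM + 1) scale under miR-27a, 1.99 ± 0.11, and 1.52 ± 0.11 under control mimic (limma, adjusted p = 1.09e-10 and 3.28e-09). Its mean in pulldown RNA was 4.26 times that in whole-cell RNA under miR-27a and 3.102 times under control mimic. Mmp24 was 3.19 and 3.24 times as high under the same mimics, with log2 changes of 1.59 ± 0.09 and 1.63 ± 0.09. Mmp3 had 88, 88 and 73 reads in the pulldown miR-27a libraries, against 8, 8 and 5 reads in the whole-cell miR-27a libraries. Under control mimic it had 43, 68 and 86 reads in pulldown RNA, against 9, 1 and 13 reads in whole-cell RNA. Its mean CPM in pulldown RNA was 9.696 times that in whole-cell RNA under miR-27a and 5.903 times under control mimic. These ratios rest on few whole-cell reads and are a description. Nothing is read from the calls of Mmp3, which entered the test through pulldown libraries alone. Timp3 had log2 changes of 1.36 ± 0.08 and 1.16 ± 0.08, and Adamtsl1 with 1.34 ± 0.11 and 0.88 ± 0.11. Of the 8 fibroblast and mural markers, 7 were higher in pulldown RNA under each mimic and 1 was lower, while OPC markers were higher in 6 of 7. The part of these markers in the pulldown results was not tested.

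Adamts4 and Thsd4 were the genes lower in pulldown RNA. Adamts4 averaged 39.5 ± 5.86 CPM in pulldown RNA and 123 ± 5.45 CPM in whole-cell RNA under miR-27a, and 58.7 ± 6.65 CPM in pulldown RNA and 127 ± 2.19 CPM in whole-cell RNA under control mimic (SD, n = 3 each). Its log2 changes were -1.63 ± 0.09 and -1.10 ± 0.09 (limma, adjusted p = 8.20e-11 under miR-27a and 1.08e-08 under control mimic). Oligodendrocyte markers were lower with it, all 6 under each mimic, at 3733 to 4766 CPM in pulldown miR-27a libraries against 10570 to 10950 CPM in whole-cell miR-27a libraries, and their part in the Adamts4 result was not tested. Thsd4 averaged 16.5 ± 1.497 CPM in pulldown RNA and 27.8 ± 1.199 CPM in whole-cell RNA under miR-27a, and 8.61 ± 1.67 CPM in pulldown RNA and 12.1 ± 0.253 CPM in whole-cell RNA under control mimic (SD, n = 3 each). Its log2 changes were -0.72 ± 0.11 and -0.47 ± 0.11 (limma, adjusted p = 1.76e-05 under miR-27a and 0.00122 under control mimic). The sheddases were higher by smaller steps, with log2 changes under miR-27a of 0.49 ± 0.06 for Adam10, 0.26 ± 0.06 for Adam17 and 0.22 ± 0.06 for Adam9. Mmp14, Mmp19, Adam15 and Adam23 did not pass under either mimic.

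**Figure D4:**
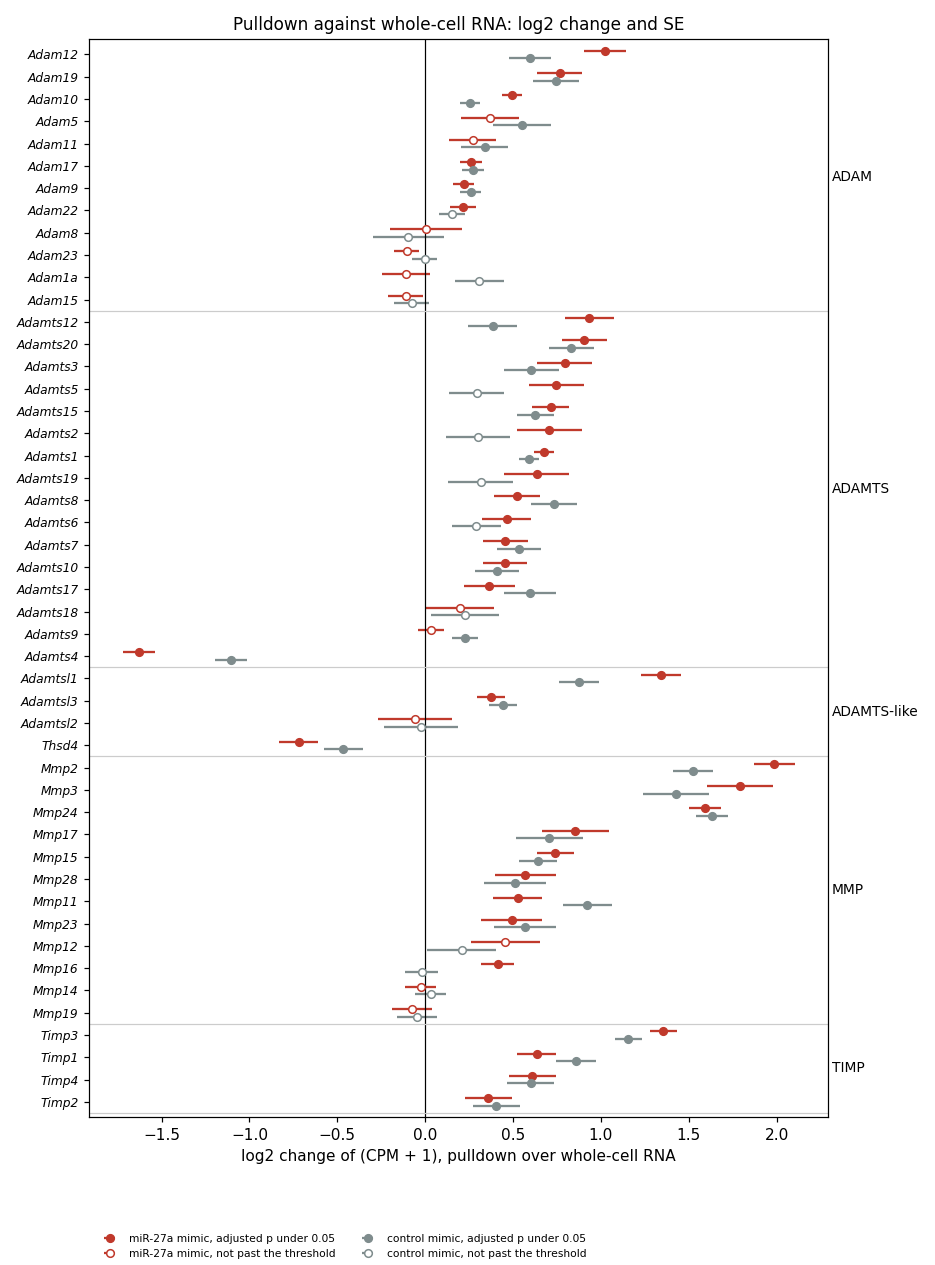
Log2 change of CPM + 1 (x axis), pulldown over whole-cell RNA, with its standard error, for the 48 measured genes by family, under the miR-27a mimic (red) and the control mimic (grey); filled points passed an adjusted p of 0.05. Most points lie right of 0 under both mimics, and Adamts4 and Thsd4 are the filled points left of 0. Of the genes that reached 1 CPM in both RNAs, Mmp2 and Mmp24 lie farthest right. Mmp3, Mmp23, Mmp28 and Adam5 entered the test through pulldown libraries alone, so nothing is read from their points.

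Other genes of the pathway were taken as lists by role. Of the activators, inhibitors and partners of these proteases, 3 of 17 tested rose and 2 fell in whole-cell RNA, and 0 of 18 rose and 2 fell in pulldown RNA by limma, where 1 was higher at an unadjusted p under 0.05. The shares called among all genes tested, for this and the next lists, were 24.9% in whole-cell RNA and 13.1% in pulldown RNA. A2m, the broad protease trap, averaged 648 ± 5.85 CPM under miR-27a and 821 ± 8.77 CPM under control mimic in whole-cell RNA (SD, n = 3 each), a log2 change of -0.34 ± 0.03, and its change in pulldown RNA was -0.62 ± 0.09 (limma, adjusted p = 1.33e-08 and 0.000267). Lrp1, the endocytic receptor that clears proteases and their inhibitors, fell by 0.18 ± 0.06 in whole-cell RNA. Frmd8, a partner of the iRhoms that carry ADAM17, and Mbtps1, a proprotein convertase, each rose by 0.12 ± 0.04 in whole-cell RNA. Tspan17, a partner of ADAM10, rose by 0.14 ± 0.05 in whole-cell RNA and fell by 0.43 ± 0.10 in pulldown RNA on the log2 scale. Reck, a membrane inhibitor of MMPs, averaged 6.86 ± 0.632 CPM under miR-27a and 6.89 ± 1.25 CPM under control mimic in whole-cell RNA (SD, n = 3 each) and did not pass.

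Of membrane proteins known to be shed, 2 of 18 tested rose and 5 fell in whole-cell RNA, and 4 of 19 rose and 4 fell in pulldown RNA. Cd44, the hyaluronan receptor, averaged 18.5 ± 2.79 CPM under miR-27a and 27.1 ± 0.854 CPM under control mimic in whole-cell RNA (SD, n = 3 each), a log2 change of -0.54 ± 0.08 (limma, adjusted p = 3.95e-05). Hbegf, an epidermal growth factor receptor ligand, fell by 0.42 ± 0.09 in whole-cell RNA and 0.63 ± 0.13 in pulldown RNA. Cspg4, the NG2 proteoglycan of OPCs, rose by 0.21 ± 0.07 and 0.73 ± 0.12 in the same RNAs, and Mag, a myelin adhesion protein, changed by -0.11 ± 0.04 and -0.89 ± 0.10. Of the lecticans cut by ADAMTSs, Vcan (versican) rose by 0.11 ± 0.04 in whole-cell RNA and 0.51 ± 0.10 in pulldown RNA, and Ncan (neurocan) changed by -0.17 ± 0.04 and -0.33 ± 0.10. Bcan (brevican) had 986 ± 38.1 CPM under miR-27a and 930.5 ± 51.5 CPM under control mimic in whole-cell RNA (SD, n = 3 each) and did not pass. Of the microfibril genes, the setting of Thsd4, Adamts6 and Adamtsl2, 2 of 12 tested rose and 1 fell in whole-cell RNA, and 3 of 13 rose and 1 fell in pulldown RNA. Fbln2 (fibulin-2) rose by 0.36 ± 0.05 and 0.63 ± 0.11, Fbln1 by 0.32 ± 0.10 and 0.59 ± 0.14, and Fbln5 changed by -0.37 ± 0.07 and -0.31 ± 0.10, in whole-cell and pulldown RNA. Fbn1 (fibrillin-1) rose in pulldown RNA by 0.51 ± 0.10, and its whole-cell change of 0.18 ± 0.08 did not pass. All of these changes are log2 values with their standard errors. Tspan10 and Nectin1 were not analysed here.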

How the data were processed

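RNA of mouse OPCs was sequenced in 12 libraries, 3 in each of 4 groups taken from the sample titles. Per the labels' design text, a stranded total RNA kit with ribosomal depletion was used, and reads were trimmed with skewer, aligned with HISAT2 to GRCm38, counted per gene with featureCounts and normalised in R. Per the submitters' processing notes the build mm8 is also named, without a role. Tool versions and the use of strand in counting were not stated in the labels.

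The authors deposited log2 CPM for 20540 genes, with -6.27 as the value of 0 reads in every library. From the deposited log2 values, CPM and whole read counts were recovered, and 100% of values were whole within 0.01 reads. The normalisation factors in the authors' values were 0.961 to 1.055, and 15548418 to 24972188 reads were assigned per library.

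Tests used limma 3.58.1 in R 4.3.3, two-sided, on log2(CPM + 1) with a trended empirical Bayes step, after a filter of 1 CPM in 3 libraries of the fit, and with Benjamini-Hochberg adjustment over all genes tested at 0.05. Fold changes are on this scale and are too small for low genes. Mimics were compared within 6 libraries of 1 RNA, and pulldown with whole-cell RNA in 1 fit of 12. The script was tested on simulated data with known changes. Other steps used Python 3.11.15 with pandas 2.3.3, numpy 2.4.6 and matplotlib 3.10.9. Seed sites and exon lengths came from GENCODE M21, and the microRNA from RefSeq.

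The labels number the replicates 1 to 3 in each group. Between pulldown miR-27a and pulldown control libraries, deviations of equal numbers correlated at 0.13, 0.27 and 0.11 across genes. The numbers may therefore pair these libraries. Between pulldown and whole-cell libraries of equal number, the correlations were 0.01, 0.16 and 0.13 under miR-27a. Under control mimic they were -0.05, -0.10 and 0.01. The main tests, also those between the RNAs, used no pairing and treated the libraries as independent. The replicate number as a block was run as an alternative. The genes, gene lists and tests were chosen with earlier results of these data known. Given in every library are the genes past the threshold in whole-cell or pulldown RNA between mimics and those with a mean of at least 50 CPM in some group, with the TIMPs. Alternatives were the pseudocount, the filter, scaling, voom, a replicate block, array weights, a fit of all 12 libraries, a minimum change and leaving out each library.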

Additional observations from a re-analysis of the deposited data

How the results depend on the processing

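The call of 13 genes between mimics in whole-cell RNA stayed between 10 and 14 over all alternatives run, and 9 of the 13 passed under each of them. In pulldown RNA the 11 calls became 7 with no filter on low values and 21 with array weights, and ranged from 5 to 14 when single libraries were left out. Adamts4, Mmp2, Thsd4 and Timp1 passed under each alternative run. With the replicate number as a block the counts were 13 in whole-cell and 13 in pulldown RNA, where Adamtsl3 and Mmp17 were added, and the block changed no other call between mimics. Same-numbered whole-cell libraries did not deviate together (correlations of 0.00, -0.03 and -0.03). Pulldown against whole-cell calls numbered 36 under miR-27a (24 to 39 over alternatives) and 33 under control mimic (23 to 36), and 22 of each passed under each alternative. Library totals as the scaling shifted these 2 contrasts by 0.10 and 0.09 on the log2 scale. The difference of contrasts, 0 calls, became 1 with the replicate block, 11 with array weights and 0 to 2 with single libraries left out. The shares called among all genes under each alternative are not given here, so nothing particular to these genes is read from these counts. The cause of these moves was not tested.

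Reversals concerned changes close to 0 that were not called. In whole-cell RNA Mmp16 was 0.0021 with library totals, Adam9 -0.0089 with median-of-ratios scaling and -0.0052 with array weights, and in pulldown RNA Adamtsl1 was 0.010 with library totals and 0.079 with array weights. With single libraries left out, log2 changes in whole-cell RNA ranged from -0.037 to 0.0017 for Adam17, -0.029 to 0.019 for Mmp16, -0.0056 to 0.084 for Adam22, -0.015 to 0.025 for Adam9 and -0.020 to 0.065 for Adam10. In pulldown RNA they ranged from -0.088 to 0.010 for Adam17, -0.065 to 0.078 for Adamtsl1, -0.014 to 0.055 for Adamts9 and -0.091 to 0.035 for Adam9. Genes near 1 CPM rest on few reads, which limits what this depth can show.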
